A study of Saccharomyces cerevisiae with 6 samples.

Results

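Budding yeast carries several pairs of related genes whose members are used under different oxygen supply, and 4 such pairs were examined here, 8 genes of the 7126 features in each deposited table. The members were taken by gene name. In each pair the hypoxic isoform, which is used when oxygen is scarce, is named before the aerobic one: CYC7 and CYC1 (cytochrome c), COX5B and COX5A (subunit 5 of cytochrome c oxidase), ANB1 and HYP2 (the translation factor eIF5A), and AAC3 and PET9 (the ADP/ATP carrier of the inner mitochondrial membrane). Polyadenylated RNA was sequenced from 3 strains in rich glucose medium (YPD), with 2 libraries each. D8A and D8B carry the same genotype label, MATa with his3, leu2, met15 and ura3, and deletions of 8 thiol peroxidase genes (tsa1 by KAN, tsa2 by LEU2, dot5 by MET15, ahp1 by HIS3, prx1 by URA3, gpx1 by URA3, gpx2 by HYG, and gpx3, the gene listed as HYR1, by KAN) together with srx1, the sulfiredoxin gene, by NAT. The labels do not say how D8A and D8B differ. WT is labelled MAT a with GAL, [phi+] and the marker alleles ade2-1, leu2-3, ura3, trp1-1, can1-100 and a his3 allele, with HIS3 and KanMX6 inserted in an intergenic stretch of chromosome XI. Its source label reads monosome XI. All 3 strains are labelled S288c, but the marker alleles of WT are those known from the W303 background and differ from those of D8A and D8B. Deletion of the peroxidases and strain background therefore cannot be told apart in any comparison with WT.

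Yeast senses oxygen largely through haem, whose synthesis needs oxygen. Haem activates the transcription factor Hap1 and promotes the action of the CCAAT-binding Hap complex, which together drive respiratory genes such as CYC1 and COX5A. Hap1 also drives ROX1, whose product recruits the Tup1-Cyc8 corepressor to hypoxic genes, ANB1 and COX5B among them, so that these are kept low in aerated cells. Laboratory strains are known to differ at HAP1, since S288c carries a transposon insertion in that gene, and the labels do not give the HAP1 allele of any strain.

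The upstream sequences of the hypoxic isoforms show how differently the 4 genes are equipped with letters that Rox1 is known to bind. Each run below covers bases 300 to 101 before the start codon, 5′ to 3′ on the coding strand, from the RefSeq sequence of build R64, and capitals mark ATTGTT, the core of the Rox1 site, or AACAAT, the same letters on the other strand.
ANB1 (chrX:525482-525681, minus strand): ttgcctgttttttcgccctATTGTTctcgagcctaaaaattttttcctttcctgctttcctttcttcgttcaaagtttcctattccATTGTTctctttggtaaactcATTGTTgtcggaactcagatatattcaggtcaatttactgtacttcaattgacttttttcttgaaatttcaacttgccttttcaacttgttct
COX5B (chrIX:154922-155121, plus strand): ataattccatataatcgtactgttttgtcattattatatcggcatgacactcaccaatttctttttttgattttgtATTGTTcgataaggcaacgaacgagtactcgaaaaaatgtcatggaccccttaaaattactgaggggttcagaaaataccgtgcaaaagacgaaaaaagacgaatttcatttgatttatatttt
AAC3 (chrII:415683-415882, plus strand): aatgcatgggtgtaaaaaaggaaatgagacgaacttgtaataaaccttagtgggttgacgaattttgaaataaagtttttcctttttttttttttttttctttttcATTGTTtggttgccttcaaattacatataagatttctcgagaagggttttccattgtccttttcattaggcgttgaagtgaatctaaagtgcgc
CYC7 (chrV:80078-80277, minus strand): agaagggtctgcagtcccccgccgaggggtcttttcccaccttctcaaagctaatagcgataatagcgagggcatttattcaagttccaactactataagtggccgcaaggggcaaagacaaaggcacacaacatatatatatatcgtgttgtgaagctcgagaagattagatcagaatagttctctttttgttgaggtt
Over the full 300 bases before the start codon, searched on both strands, ANB1 held 3 matches, beginning 281, 214 and 193 bases before the start codon. COX5B held 2, at 224 bases and, on the other strand and past the end of the printed run, at 81 bases. AAC3 held 1, at 194 bases, and CYC7 held none. Of the aerobic isoforms, COX5A held 1 match and CYC1, HYP2 and PET9 held none. The same letters occur in 34.1% of all 6001 promoters of this length, so a single match is common. CCAAT, the core of the Hap complex site, was found 2 times each before COX5B, COX5A and HYP2, 1 time before PET9 and not before the other 4 genes, against 41.8% of all promoters with a match. The consensus site of Hap1 (0.133% of promoters) and TCGTTTAG, a sterol response element (1.03%), matched in none of the 8 windows, and no match of any motif overlapped another. Over 600 bases, where 70.3% of promoters held CCAAT, CYC7 held 2 matches and AAC3 1, and CYC1 and ANB1 held none. CYC1, named above as driven by Hap1 and the Hap complex, matched neither motif, so lack of a match does not show lack of a site.

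Values are FPKM as deposited, fragments per kilobase scaled to library depth. Library depth, read from the steps of the deposited confidence bounds, was 4.02 M and 8.06 M fragments in D8A, 14.2 M and 10.6 M in D8B, and 9.15 M and 10.1 M in WT. D8A replicate 1, the shallowest library, stood apart on the first principal component, at 51.0 against -32.3 to 9.24 in the others. Of the 9 genes labelled as deleted, 8 fell in the null strains in limma, whereas SRX1 went against its label, at 319 and 415 FPKM in the libraries labelled D8A and 654 and 584 in those labelled D8B, against 52.8 and 76.8 in WT. All 6 a-specific mating genes were detected (33.7 to 6269.6 FPKM). The 4 alpha-specific ones were lower (1.44 to 31.9 FPKM) in every library, the direction that the mating type labels imply. MF(ALPHA)2, the highest of the 4, came near the lowest a-specific values. The labels do not say whether replicates were separate cultures, so p-values rest on a spread between libraries that may be technical only. In bulk RNA a lower value can mean less transcript per cell or fewer cells that make it, and these cannot be told apart.

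All 8 isoforms, hypoxic and aerobic alike, had a lower mean in both null strains than in WT. Averaged over D8A and D8B, 3 of 8 members fell at an adjusted p under 0.05 in limma (CYC7, ANB1 and COX5B, each a hypoxic isoform), where 4.91% of the 6925 features tested fell and 1.55% rose. In D8A 4 of 8 fell, the same 3 with AAC3, against 3.83% of all features that fell and 1.23% that rose. In D8B only CYC7 fell, against 3.68% of features that fell and 1.21% that rose. The aerobic isoforms passed in no comparison. The median log2 difference of the 8 members was -1.20 for both null strains together, -1.17 in D8A and -0.98 in D8B, beside 0.014, -0.0088 and 0.059 for all features tested. In 6 of 8 members all 4 null libraries lay below both WT libraries, which 16.3% of all features did, and the exceptions were the ADP/ATP carriers AAC3 and PET9. In D8A 7 of 8 members lay below WT without overlap, all but PET9, against 26.1% of all features, and in D8B 7 of 8 did, all but AAC3, against 25.9%. D8A and D8B are set against the same WT libraries, so their differences from WT are not independent of each other. The difference in calls between hypoxic and aerobic isoforms was not itself tested over the genes. The ratio within each pair, given further on, compares them directly.

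**Figure D1:**
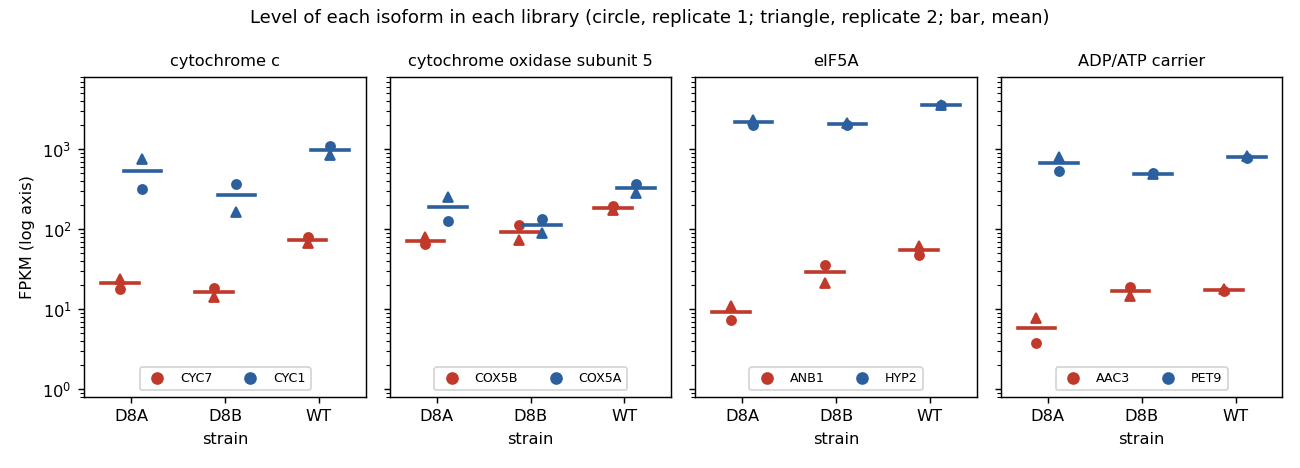
FPKM of each isoform on a log axis in D8A, D8B and WT, hypoxic isoform in red and aerobic isoform in blue, with a circle for replicate 1, a triangle for replicate 2 and a bar for the mean. HYP2 lies highest in every strain, AAC3 and ANB1 lie lowest in D8A, and COX5B comes closest to its aerobic partner in D8B.

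Cytochrome c carries electrons between the bc1 complex and cytochrome c oxidase. CYC7 (YEL039C, chromosome V, 79636 to 79977, minus strand, R64) codes for the minor isoform, which accounts for a larger share of cytochrome c when oxygen is low. It was measured at 17.9 and 24.1 FPKM in D8A, 18.3 and 14.2 FPKM in D8B, and 80.1 and 67.5 FPKM in WT. All 4 null libraries lay far below both WT libraries and close to each other. The mean was 18.6 ± 4.09 FPKM in the null libraries (SD, n = 4) and 73.8 ± 8.94 FPKM in WT (SD, n = 2). The null values rest on few fragments. In D8A the deposited bounds of CYC7 correspond to 5 to 24 and 19 to 47 fragments. In D8B they correspond to 26 to 59 and 14 to 38, and in WT to 86 to 142 and 80 to 132. On the scale of log2(FPKM + 1), CYC7 fell by 1.95 ± 0.20 (SE), to 0.259 of the WT level (limma adjusted p = 0.00137). It fell in D8A (-1.78 ± 0.23, limma adjusted p = 0.00534) and in D8B (-2.12 ± 0.23, limma adjusted p = 0.00248). The D8A call was lost without WT replicate 1 (limma adjusted p = 0.0516), and the others held in every alternative tried.

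CYC1 (YJR048W, chromosome X, 526335 to 526664, plus strand) codes for the major isoform. It was measured at 317 and 759 FPKM in D8A, 371 and 163 FPKM in D8B, and 1114 and 841 FPKM in WT. All 4 null libraries lay below WT, but replicates of each null strain lay further apart on the log scale than those of WT, and D8A replicate 2 came near WT replicate 2. The difference was -1.48 ± 0.43 (SE), nearly as large as that of CYC7, and it did not pass (limma adjusted p = 0.0966). In D8B alone it was -1.97 ± 0.50 (limma adjusted p = 0.0718) and in D8A -0.98 ± 0.50 (limma adjusted p = 0.348). The D8A value rested on which library was used, at -0.35 without D8A replicate 1 and -1.61 without D8A replicate 2. The call depended on the fit: it passed for both null strains together with the fit restricted to features of 300 bp or more, with the midpoint of the deposited bounds, and without D8A replicate 2 or D8B replicate 1 (limma adjusted p from 7.56e-08 to 0.0454). In D8B alone it passed with features of 300 bp or more, with the midpoint, with D8B and WT alone in the fit, and without D8A replicate 1, D8A replicate 2 or D8B replicate 1 (limma adjusted p from 4.34e-10 to 0.0492), and in D8A with features of 300 bp or more (limma adjusted p = 0.00553).

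Subunit 5 of cytochrome c oxidase is made in an aerobic and a hypoxic form, of which the hypoxic one is known to give the enzyme a higher turnover. COX5B (YIL111W, chromosome IX, 155222 to 155765, plus strand, 2 coding exons) was measured at 65.1 and 78.8 FPKM in D8A, 114 and 72.4 FPKM in D8B, and 196 and 174 FPKM in WT. The WT libraries were the highest, and D8B replicate 1 was the highest of the null libraries. COX5B fell by 1.19 ± 0.23 (SE) in both null strains together, to 0.439 of the WT level, in 4 of 4 libraries (limma adjusted p = 0.0231). It fell in D8A (-1.36 ± 0.27, limma adjusted p = 0.0307) and did not pass in D8B (-1.02 ± 0.27, limma adjusted p = 0.0779), where it did with robust variances, features of 300 bp or more or the midpoint of the bounds (limma adjusted p from 0.000718 to 0.0203). The calls for both null strains together and for D8A were lost without WT replicate 1, WT replicate 2 or D8A replicate 1 and without the filter on low values, with limma adjusted p up to 0.194.

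COX5A (YNL052W, chromosome XIV, 531725 to 532186, plus strand), the aerobic form, was measured at 125 and 254 FPKM in D8A, 136 and 88.5 FPKM in D8B, and 365 and 287 FPKM in WT. It too was lower than WT in all 4 null libraries, with D8A replicate 2 closest to WT. Its difference of -1.20 ± 0.32 (SE) was close to that of COX5B and did not pass (limma adjusted p = 0.0736), nor did it in D8A (-0.86, limma adjusted p = 0.284) or D8B (-1.55, limma adjusted p = 0.0629). It passed for both null strains together with robust variances, with features of 300 bp or more, with the midpoint of the bounds and without D8A replicate 2 (limma adjusted p from 2.89e-06 to 0.0199). In D8B it passed with the first 3 of these settings, with quantile normalization, with D8B and WT alone in the fit and without either D8A library (limma adjusted p from 1.54e-07 to 0.0481). In D8A it was -0.35 without D8A replicate 1 and -1.36 without D8A replicate 2, and passed with features of 300 bp or more (limma adjusted p = 0.00994).

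The translation factor eIF5A helps ribosomes through stretches of protein that are slow to join, and it carries hypusine, a modified lysine whose formation needs oxygen. ANB1 (YJR047C, chromosome X, 524908 to 525381, minus strand) is the hypoxic form and the textbook target of Rox1, whose 3 matches stand in capitals in its sequence above. It was measured at 7.36 and 11.0 FPKM in D8A, 36.1 and 21.4 FPKM in D8B, and 48.2 and 61.7 FPKM in WT. The 3 strains did not overlap, with D8A lowest, D8B between and WT highest. ANB1 fell by 2.47 ± 0.30 (SE) in D8A, to 0.181 of the WT level (limma adjusted p = 0.00443), a call that held in every alternative tried. In D8B the difference was -0.94 ± 0.30 and did not pass (limma adjusted p = 0.138), though it did with the same 3 settings as COX5B in D8B (limma adjusted p from 0.00168 to 0.0441), and it was -0.58 without D8B replicate 2. For both strains together it fell by 1.71 ± 0.26 (limma adjusted p = 0.00822), a call lost without WT replicate 2 and without the filter on low values (limma adjusted p = 0.118 and 0.0541). The D8A values rest on few fragments: the deposited bounds of ANB1 correspond to 4 to 21 and 16 to 47 fragments in D8A, 119 to 179 and 49 to 91 in D8B, and 102 to 156 and 147 to 218 in WT.

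HYP2 (YEL034W, chromosome V, 85676 to 86149, plus strand), the aerobic form of eIF5A, was the most abundant member. It was measured at 2003 and 2346 FPKM in D8A, 2009 and 2137 FPKM in D8B, and 3543 and 3599.65 FPKM in WT. Both strains lay at similar levels below WT, without overlap. The difference was -0.75 ± 0.21 (SE), 0.594 of the WT level, and did not pass (limma adjusted p = 0.0865), nor did it in D8A (-0.72, limma adjusted p = 0.171) or D8B (-0.79, limma adjusted p = 0.132). It passed for both null strains together with median-centred libraries, with features of 300 bp or more and with the midpoint of the bounds (limma adjusted p from 0.0268 to 0.0464). HYP2 lies inside YEL034C-A on the opposite strand (85613 to 86215), which was listed at 296 and 308 FPKM in D8A, 273 and 336 in D8B, and 496 and 581 in WT. With use of the strand in counting not given in the sources used here, reads of HYP2 and of this feature cannot be told apart.

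The ADP/ATP carriers exchange ATP made in mitochondria for cytosolic ADP, and under anaerobic growth they can import ATP instead. AAC3 (YBR085W, chromosome II, 415983 to 416906, plus strand), the anaerobic form, was the scarcest member in D8A and in WT. It was measured at 3.796 and 7.75 FPKM in D8A, 18.9 and 14.6 FPKM in D8B, and 16.8 and 17.8 FPKM in WT. D8A lay below the other strains, and the D8B libraries lay on either side of WT. AAC3 fell in D8A by 1.50 ± 0.31 (SE), to 0.353 of the WT level (limma adjusted p = 0.0370). In D8B the difference was -0.055 ± 0.31, with a 95% interval from -0.78 to 0.67 (limma adjusted p = 0.950). The D8A call was lost at a pseudocount of 0.1, with no filter on low values and without WT replicate 1, WT replicate 2 or D8A replicate 1 (limma adjusted p up to 0.225). The bounds of AAC3 in D8A correspond to 6 to 22 and 34 to 70 fragments.

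PET9 (YBL030C, chromosome II, 163041 to 163997, minus strand) codes for the major aerobic carrier. It was measured at 528 and 811 FPKM in D8A, 504 and 489 FPKM in D8B, and 771 and 817 FPKM in WT. D8A replicate 2 lay within the WT range, D8A replicate 1 was well below it, and both D8B libraries were lower still. PET9 did not pass in any comparison (-0.48 ± 0.24 SE for both null strains together, limma adjusted p = 0.301). In D8B the difference was -0.67 ± 0.27 (limma adjusted p = 0.231), and in D8A -0.28 ± 0.27 (limma adjusted p = 0.617). The D8A value was 0.032 without D8A replicate 1, -0.59 without D8A replicate 2 and -0.041 with quantile normalization.

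**Figure D2:**
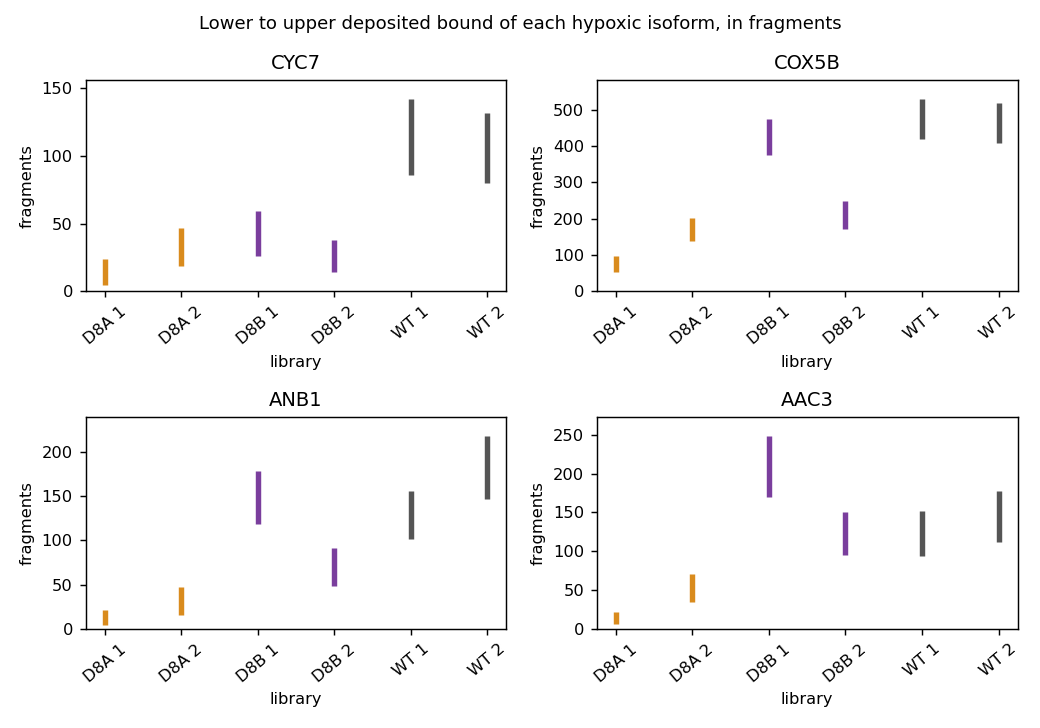
Lower to upper deposited confidence bound of the 4 hypoxic isoforms in each library, converted to fragments, with D8A, D8B and WT from left to right. CYC7, ANB1 and AAC3 rest on at most 47, 47 and 70 fragments in D8A, and CYC7 on at most 59 in D8B. In fragments, which are not scaled to library depth, the bounds of AAC3 in D8B replicate 2 nearly match those of WT replicate 1.

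**Figure D3:**
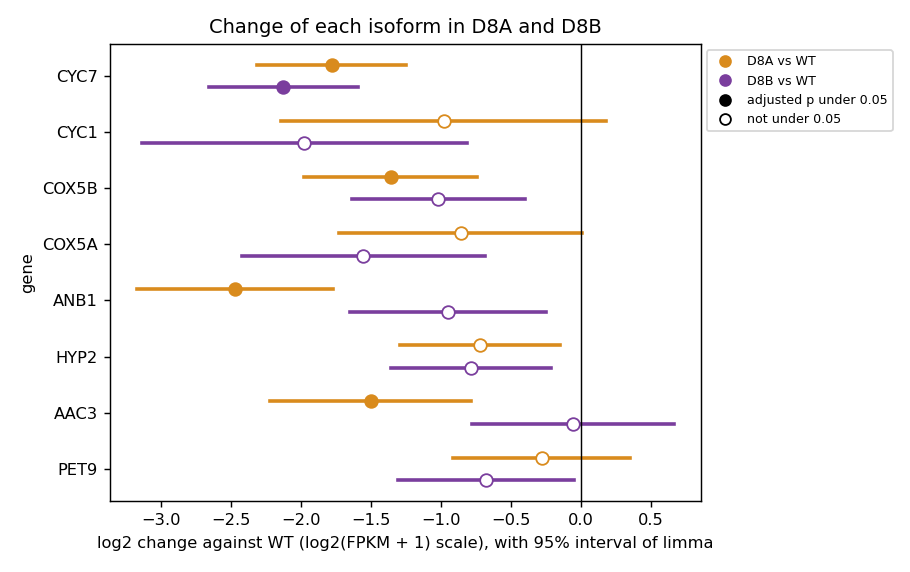
Log2 difference of each member from WT with its 95% interval in limma, D8A in orange and D8B in purple, filled where the adjusted p is under 0.05. All estimates lie below 0, and the intervals of CYC1, COX5A and PET9 in D8A and of AAC3 in D8B include 0.

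The isoform ratios address whether the balance between the hypoxic and the aerobic form shifted, and each was taken within 1 library as log2 of (hypoxic FPKM + 1) over (aerobic FPKM + 1). In D8A the balance lay further towards the aerobic form than in WT in all 4 pairs. The 4 ratios come from the same D8A and WT libraries and are not independent, and no share over other pairs of genes was computed. In D8B it did so in none without overlap of libraries, and in COX5B/COX5A and AAC3/PET9 it lay further towards the hypoxic form. Neither of these hypoxic forms was higher than WT on average in D8B (COX5B -1.02, AAC3 -0.055). Their aerobic partners were lower by more (COX5A -1.55, PET9 -0.67), and none of these differences passed in limma. With 4 against 2 libraries the exact two-sided permutation test cannot go below p = 0.133, and with 2 against 2 not below p = 0.333, so no ratio could pass, and the differences are set beside the spread of replicates. For 2 against 2 libraries the standard error of a difference equals the pooled replicate SD. A difference larger than that SD is therefore not shown to lie beyond replicate noise.

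For ANB1/HYP2 the log2 ratio was -7.90 and -7.61 in D8A, -5.76 and -6.58 in D8B, and -6.17 and -5.84 in WT. D8A lay below all other libraries, and the D8B libraries lay on either side of WT. ANB1 made up 0.366% and 0.468% of the summed FPKM of the pair in D8A, 1.77% and 0.992% in D8B, and 1.34% and 1.68% in WT. The difference from WT was -1.75 in D8A and -0.16 in D8B, with a pooled replicate SD of 0.379, so that the D8A difference exceeded the spread of replicates and the D8B difference did not. For both null strains together it was -0.95 (exact permutation p = 0.4). The D8B difference changed sign without D8B replicate 2 (0.25) or WT replicate 2 (0.0042), and was -0.57 without D8B replicate 1. For both null strains together it was -0.94 when YEL034C-A was added to HYP2, a choice made after seeing the data.

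For AAC3/PET9 the log2 ratio was -6.79 and -6.54 in D8A, -4.66 and -4.97 in D8B, and -5.44 in both WT libraries. D8A lay below WT and D8B above it, with no overlap among the 3 strains. AAC3 made up 0.714% and 0.947% of the pair in D8A, 3.62% and 2.90% in D8B, and 2.14% in both WT libraries. The difference from WT was -1.22 in D8A and 0.62 in D8B, both larger than the pooled replicate SD of 0.162. Averaging the strains gave -0.30 (exact permutation p = 0.8).

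For COX5B/COX5A, the pair closest to balance, the log2 ratio was -0.93 and -1.68 in D8A, -0.25 and -0.29 in D8B, and -0.89 and -0.72 in WT. D8A again lay below WT and D8B above it, although D8A replicate 1 differed little from WT replicate 1. COX5B made up 34.2% and 23.7% of the pair in D8A, 45.6% and 45.0% in D8B, and 35.0% and 37.7% in WT. The differences from WT were -0.50 in D8A and 0.54 in D8B, beside a pooled replicate SD of 0.311, which is also their standard error. The D8A difference was -0.13 without D8A replicate 2 and -0.87 without D8A replicate 1. The D8A and D8B differences cancelled in the average of the null strains, 0.018 (exact permutation p = 1). That average changed sign without WT replicate 1 (-0.068) or D8A replicate 1 (-0.17).

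For CYC7/CYC1 the log2 ratio was -4.08 and -4.92 in D8A, -4.27 and -3.43 in D8B, and -3.78 and -3.62 in WT. D8A lay below WT, and D8B spread on both sides of it. CYC7 made up 5.33% and 3.08% of the pair in D8A, 4.70% and 8.02% in D8B, and 6.71% and 7.43% in WT. The difference was -0.80 in D8A and -0.15 in D8B, with a pooled replicate SD of 0.490, the widest of the 4 pairs. Both null strains together differed by -0.47 from WT, less than the spread of replicates (exact permutation p = 0.4). That value was -0.26 without either D8A replicate 2 or D8B replicate 1 and -0.29 with the midpoint of the bounds. The D8A difference was -0.38 without D8A replicate 2 and -1.22 without D8A replicate 1, and the D8B difference ranged from -0.57 to 0.27 with 1 library left out. CYC1 was lower beside CYC7, and the ratio differed less than the level of CYC7 did.

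**Figure D4:**
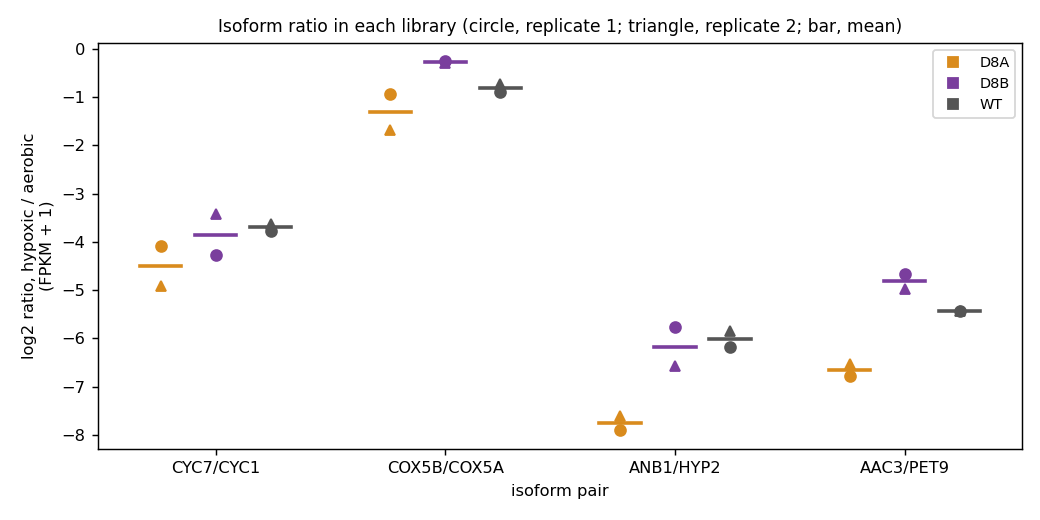
Log2 ratio of the hypoxic to the aerobic isoform, from FPKM + 1, in each library of D8A, D8B and WT, with a circle for replicate 1, a triangle for replicate 2 and a bar for the mean. D8A lies below WT in all 4 pairs, and D8B lies above WT without overlap in COX5B/COX5A and AAC3/PET9.

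The scale of FPKM and shared reads both bear on the ratios. Short features have FPKM above the midpoint of their own bounds, by 2.38 to 2.505 times for CYC1, 1.70 to 2.20 times for CYC7, 1.59 to 1.73 times for COX5B, 1.61 to 1.72 times for COX5A, 1.68 to 1.70 times for HYP2, 1.12 to 1.63 times for ANB1, 1.24 to 1.25 times for PET9 and 1.01 to 1.19 times for AAC3, so the isoforms of a pair are not on quite the same scale. For ANB1 the factor also differed between strains, at 1.12 and 1.34 in D8A, 1.63 and 1.54 in D8B, and 1.62 in both WT libraries. For CYC7 it was 1.70 and 2.01 in D8A, 2.08 and 1.99 in D8B, and 2.20 in both WT libraries. Taken from midpoints, ANB1 differed by -2.05 in D8A and the ANB1/HYP2 ratio by -1.34, against -2.47 and -1.75 from FPKM. CYC7 differed by -1.49 in D8A and -1.72 for both null strains together, against -1.78 and -1.95 from FPKM. The AAC3/PET9 ratio differed by -1.10 in D8A and 0.59 in D8B, and that of CYC7/CYC1 by -0.55 and -0.024. Reads can also be shared between isoforms where the coding sequences are alike. Identity over the coding sequence was 90.9% for ANB1 and HYP2, 76.4% for AAC3 and PET9, 74.3% for CYC7 and CYC1, and 64.6% for COX5B and COX5A. Of the windows of 25 bases in the hypoxic isoform, 48 of 450 in ANB1 and 11 of 318 in CYC7 also occurred in its partner, and none in COX5B or AAC3, while no window of 50 bases was shared in any pair. With the read length not given in the sources used here, the share of reads that fit both isoforms is unknown.

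Between the null strains, the members that differed most were ANB1 and AAC3, both hypoxic isoforms. ANB1 was 36.1 and 21.4 FPKM in D8B and 7.36 and 11.0 FPKM in D8A, a difference of 1.52 ± 0.30 (SE) on the log2 scale, 2.88-fold (limma adjusted p = 0.115). AAC3 was 18.9 and 14.6 FPKM in D8B and 3.796 and 7.75 FPKM in D8A, a difference of 1.45 ± 0.31, 2.72-fold (limma adjusted p = 0.141). Neither passed after adjustment, and 0 of 8 members did, where 0.332% of all features passed (0.217% as higher in D8B). At an unadjusted p under 0.05 these 2 of 8 members passed, as did 9.18% of all features. Both were above D8A in 2 of 2 D8B libraries, as were 19.7% of all features. ANB1 and AAC3 passed the adjusted test with robust variances, with features of 300 bp or more and with the midpoint of the bounds, and AAC3 also without D8A replicate 2. Over all alternatives the limma adjusted p ranged from 1.89e-07 to 0.412 for ANB1 and from 2.26e-05 to 0.501 for AAC3.

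The other 6 members gave D8B minus D8A differences of -0.99 (CYC1), -0.70 (COX5A), -0.40 (PET9), -0.35 (CYC7), -0.065 (HYP2) and 0.34 (COX5B), with limma adjusted p from 0.605 to 0.956. These values rest on single libraries: without D8A replicate 2 they were -0.37 for CYC1, -0.19 for COX5A, -0.087 for PET9, -0.14 for CYC7 and 0.049 for HYP2, and COX5B was 0.015 without D8B replicate 1. Without D8A replicate 1 they were -1.62 for CYC1, -1.20 for COX5A and -0.71 for PET9. In the isoform ratios D8B exceeded D8A by 1.84 for AAC3/PET9, 1.59 for ANB1/HYP2 and 1.03 for COX5B/COX5A, without overlap of libraries in these 3 pairs, and by 0.65 with overlap for CYC7/CYC1. Without D8A replicate 2 the COX5B/COX5A value was 0.66, and the CYC7/CYC1 value ranged from 0.23 to 1.07 with 1 library left out. Beside these ratios, COX5A and CYC1 averaged less in D8B than in D8A with overlap of libraries, PET9 was lower in D8B without overlap, as were 15.1% of all features, and ANB1 and AAC3 were higher in D8B without overlap, so a ratio alone does not tell which isoform differed.

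From high to low it ran HYP2, PET9, CYC1, COX5A, COX5B, CYC7, ANB1 and AAC3 in D8A, where PET9 and CYC1 overlapped, and ANB1 and AAC3 did. In D8B it ran HYP2, PET9, CYC1, COX5A, COX5B, ANB1, AAC3 and CYC7, with overlaps between COX5A and COX5B and between AAC3 and CYC7. In WT it ran HYP2, CYC1, PET9, COX5A, COX5B, CYC7, ANB1 and AAC3, with no overlap between neighbours. CYC7 thus stood above ANB1 and AAC3 in D8A and WT and below ANB1 in D8B. These levels are FPKM, and part of the order turned on the midpoint of the bounds. There PET9 lay above CYC1 in WT, at 617 and 653 against 445 and 336, and CYC7 (36.4 and 30.6) overlapped ANB1 (29.7 and 38.0). In D8A the midpoints of PET9 and CYC1 no longer overlapped and those of CYC1 and COX5A did. In D8B CYC1 overlapped COX5A, ANB1 overlapped AAC3, and AAC3 no longer overlapped CYC7.

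Position and likeness of pattern were described without a test. CYC1 and ANB1 are neighbours on chromosome X, 953 bases apart and transcribed away from each other, and CYC7 and HYP2 lie 5698 bases apart on chromosome V in a duplicated block of the genome. The level of a chromosome was taken as the median difference of its genes from WT minus that of the other nuclear genes, without the members. For chromosome V it was -0.056 and -0.058 in D8A and 0.082 and 0.23 in D8B. The part of this level in the differences of CYC7 and HYP2, and of TIR1 on the same chromosome (described below), was not tested. For chromosome X the level was 0.030 and 0.047 in D8A and 0.019 and 0.0010 in D8B. Of 6 other genes in the blocks around CYC1 and CYC7 (OSM1, RAD7, UTR1, RAD23, UTR4 and ANP1), 0 passed in limma in any comparison. Over the 6 libraries, among 5468 features of at least 300 bp and mean FPKM of 10, the pattern most like that of CYC7 was PET10 (Pearson r = 0.993), that of ANB1 TRP3 (r = 0.993), that of AAC3 FAA3 (r = 0.996) and that of COX5B MDG1 (r = 0.996). For the aerobic forms it was CLB6 with CYC1 (r = 0.995), RCR1 with COX5A (r = 0.994), TYR1 with HYP2 (r = 0.997) and GGA2 with PET9 (r = 0.995). With 6 libraries from 3 strains, such values are found by search and describe these libraries only. Between members, the highest r was 0.991, of CYC1 with COX5A. That of CYC7 with HYP2, a hypoxic with an aerobic isoform, was 0.976, and that of ANB1 with AAC3 was 0.920.

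Of the regulators above the pairs, a single one passed. Of 15 oxygen regulators, 1 rose (MGA2, a membrane-bound activator of the desaturase gene OLE1) and 0 fell in each null strain and in both together, with a median of 0.31 for both together. Of all features, 1.55% rose for both together, 1.23% in D8A and 1.21% in D8B. MGA2 was 69.6 and 44.9 FPKM in D8A, 41.4 and 85.6 FPKM in D8B, and 14.5 and 17.2 FPKM in WT. Every null library lay above WT, and replicates differed widely. It rose by 1.81 ± 0.31 (SE) in both null strains together (limma adjusted p = 0.0144), a call lost without WT replicate 1, WT replicate 2 or the filter on low values (limma adjusted p up to 0.106), and in single strains also without D8A replicate 1 or D8B replicate 2 and with centred or quantile-normalized libraries (limma adjusted p up to 0.165). HAP1, the haem-responsive activator, was 268 and 231 FPKM in D8A, 210 and 275 FPKM in D8B, and 152 and 169 FPKM in WT, a difference of 0.61 ± 0.20 that did not pass (limma adjusted p = 0.140). ROX1 was 34.7 and 39.8 FPKM in D8A, 27.7 and 35.7 FPKM in D8B, and 22.0 and 27.5 FPKM in WT, a difference of 0.46 that did not pass (limma adjusted p = 0.214). Both regulators were higher than WT in all 4 null libraries, ROX1 in D8B replicate 1 by little. The share of all features with this order is not given here, so it is not read as a result. These are levels of mRNA, which do not measure the activity of either factor.

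Of 17 other hypoxic genes, among them sterol, haem and fatty acid enzymes and anaerobic cell wall genes, 0 rose and 1 fell in both null strains together (TIR3, a cell wall mannoprotein), where 4.91% of all features fell, with a median of 0.12. In D8A the median was -0.30, and TIR3 fell (-1.24 ± 0.27 SE, limma adjusted p = 0.0409). In D8B the median was 0.25, and TIR1, another mannoprotein of the anaerobic cell wall, rose. TIR1 was 96.2 and 123 FPKM in D8B, 18.6 and 9.07 FPKM in D8A, and 22.6 and 37.9 FPKM in WT. D8B lay above both other strains without overlap, and D8A lay below WT. TIR1 rose by 1.86 ± 0.36 in D8B against WT (limma adjusted p = 0.0295) and by 2.97 ± 0.36 in D8B against D8A (limma adjusted p = 0.0226), the same direction as ANB1 and AAC3 between these strains. Both calls were lost without either D8B library, the call against WT also without either WT library, and both with centred or quantile-normalized libraries and without the filter on low values (limma adjusted p up to 0.166). TIR3 lost its call for both strains together when any 1 of the 6 libraries was left out, at a pseudocount of 0.1 and without the filter (limma adjusted p up to 0.460), and its call in D8A with those 2 settings and without either D8A or either WT library (limma adjusted p up to 0.332). OLE1, named here after its values were seen because MGA2 activates it, was 1070.06 and 652 FPKM in D8A, 722 and 1188 FPKM in D8B, and 390 and 378 FPKM in WT (1.19 ± 0.29, limma adjusted p = 0.0557).

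Several genes of cytochrome c oxidase, or that act on or with cytochrome c, fell. They are not specific to the aerobic or the hypoxic isoform. All 7 further nuclear subunits of cytochrome c oxidase had negative differences in D8A and D8B. Of the 6925 features tested, 3413 had positive differences in D8A and 3861 in D8B. For both null strains together 4.91% of all features fell and 1.55% rose, and in D8B 3.68% fell and 1.21% rose. The median of the 7 subunits for both null strains together was -0.89, and COX6 alone of them fell (-1.17 ± 0.26 SE, limma adjusted p = 0.0408). In D8B COX4 and COX6 fell (-1.68 and -1.61, limma adjusted p = 0.0373 and 0.0266), and in D8A 0 of 7 did. Per library, the median of these subunits against WT was -1.12 and -0.29 in D8A, and in D8B -0.996 and -1.38. D8A replicate 2 was nearest to WT here, as it was for COX5A and CYC1. Of 6 genes that act on or with cytochrome c, CYC3, the haem lyase that completes it, fell by 1.22, CYT1, cytochrome c1 of the bc1 complex, by 1.14, and CYB2, a lactate dehydrogenase that feeds it electrons, by 1.02 (limma adjusted p = 0.0242, 0.0331 and 0.0220). CCP1, cytochrome c peroxidase, rose by 1.35 (limma adjusted p = 0.0260). The same 4 genes passed in D8B, and 0 of 6 passed in D8A. Each of the calls for both null strains together was lost without either WT library, those of COX6, CYC3, CYT1 and CYB2 also without D8B replicate 2, and those of CYT1 and CCP1 also without D8B replicate 1. Without the filter on low values all but that of CYB2 were lost, and COX6 was also lost at a pseudocount of 0.1 (limma adjusted p up to 0.296). The calls in D8B were lost without either WT library or D8B replicate 2, all but that of CYT1 without D8B replicate 1, all but that of CYB2 without the filter, and those of CYC3 and CCP1 at a pseudocount of 0.1 (limma adjusted p up to 0.340). The D8B minus D8A difference passed for none of these genes.

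DYS1 and LIA1, the enzymes that make hypusine on eIF5A, had 0 calls, with medians of 0.12 in D8A and 0.63 in D8B. Among 7 mitochondrial carriers of nucleotides and phosphate other than the pair, GGC1, the GTP/GDP carrier, and PIC2, a copper and phosphate carrier, fell. For both null strains together 4.91% of all features fell. GGC1 was 73.2 and 97.4 FPKM in D8A, 112 and 76.1 FPKM in D8B, and 539 and 562 FPKM in WT. All 4 null libraries were far below WT, and the strains overlapped each other. GGC1 fell by 2.63 ± 0.23 (SE), a larger fall than that of any member for both null strains together (limma adjusted p = 0.000816), and kept its call in every alternative tried. PIC2 fell by 0.80 ± 0.19 (limma adjusted p = 0.0457), a call lost when any library but D8A replicate 2 was left out, at a pseudocount of 0.1 and without the filter (limma adjusted p up to 0.413). AAC1, the third ADP/ATP carrier, was 14.7 and 27.7 FPKM in D8A, 14.7 and 14.8 FPKM in D8B, and 15.95 and 14.3 FPKM in WT, and did not pass.

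**Figure D5:**
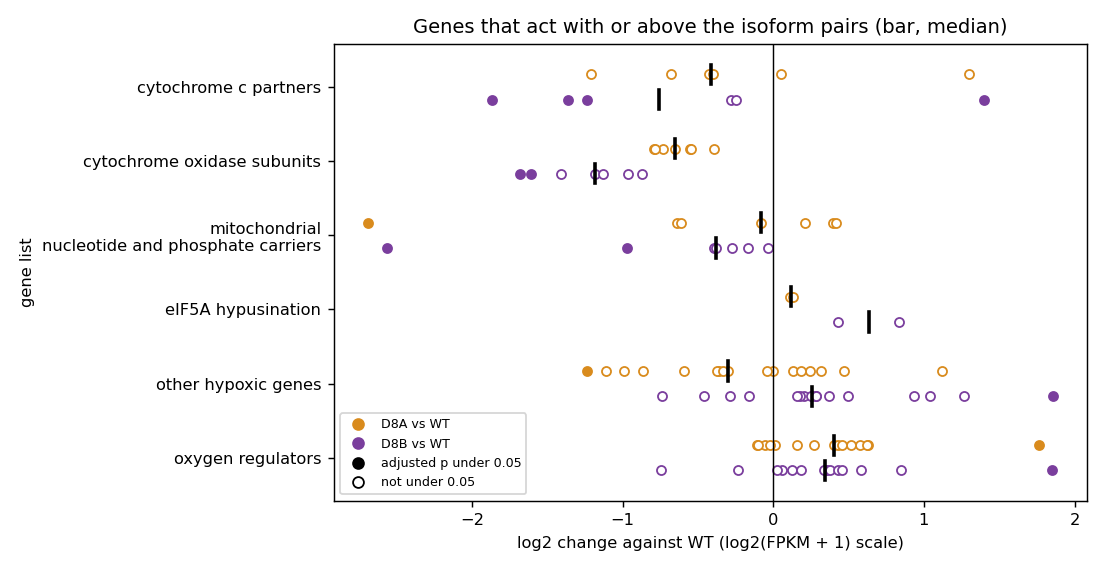
Log2 difference from WT of the genes of 6 related lists in D8A (orange) and D8B (purple), filled where the limma adjusted p is under 0.05, with a black bar at each median. The cytochrome oxidase subunits all lie below 0 in both strains, whereas other hypoxic genes lie on both sides of it and GGC1 lies furthest to the left.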

How the data were processed

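RNA sequencing of polyadenylated RNA gave 1 table per library. The authors deposited FPKM with the bounds of a confidence interval, per the file headers. The submitters' processing notes name Bowtie2 2.1.0, TopHat2 2.0.9, Cufflinks 2.1.1 and build R64, without role or order. FPKM of short features exceed the middle of their bounds, and FPKM are not counts, so no count model was used.

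Features with status OK in all libraries (7051 of 7126) and a mean FPKM of at least 1 were tested, 6925 in all, among them all 8 members. Group means of log2(FPKM + 1) were fitted with limma 3.58.1 in R 4.3.3 (variance trend, 3 residual and 4.705 prior degrees of freedom), all 6 libraries in 1 fit, with Benjamini-Hochberg adjustment over all features and a threshold of 0.05. The script was tested on simulated data. Fold changes on this scale understate changes of low values. Fragment numbers were taken from bounds that step in whole multiples of 1 fragment: 93.8% to 96.1% of bounds of up to 60 fragments in single-exon features were whole within 0.02, and all bounds of the members were. They cover counting error only, since PCR copies cannot be told from separate molecules. Isoform ratios were compared with exact two-sided permutation tests (SciPy 1.17.1), and coding sequences were aligned with Biopython 1.88.

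Samples were grouped by their titles. The text names the members, HAP1, ROX1, the deleted genes, up to 4 called genes of each list and the feature most like each member. Members, lists and tests were chosen with earlier results of these data known. Of the identifiers, 6048 matched R64, 6036 of them at equal coordinates. Alternatives covered the pseudocount, filter, scaling, variance model, feature length, confidence midpoint, replicate block, groups fitted and single libraries.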

Additional observations from a re-analysis of the deposited data

Results flagged for a closer look

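TIR1, the anaerobic mannoprotein gene, differed between the null strains by 2.97 on the log2 scale (D8B minus D8A, limma adjusted p = 0.0226), with 96.2 and 123 FPKM in D8B and 18.6 and 9.07 FPKM in D8A. It was higher in 2 of 2 D8B libraries.

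The log2 ratio of AAC3 to PET9 was 1.84 higher in D8B than in D8A, and that of COX5B to COX5A was 1.03 higher. In both pairs each D8B library lay above and each D8A library below both WT libraries. These differences were not tested to a threshold, since 2 against 2 libraries cannot give an exact permutation p below 0.333. The fragments behind AAC3 in D8A replicate 1, 6 to 22, limit the first of these ratios. Depth moves with these values, at 14.2 M and 10.6 M fragments in D8B against 4.02 M and 8.06 M in D8A, and its part in them was not tested.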

How the results depend on the processing

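The number of features that passed in limma depended on the fit. For both null strains against WT it was 447, against 270 without a filter, 685 with quantile normalization, 741 with robust variances, 948 among features of 300 bp or more, 671 with the midpoint of the bounds, and 114 to 671 with 1 library left out. For D8A against WT it was 350, against 184 without a filter, 616 with robust variances, 801 with 300 bp or more, 187 with a replicate block, and 90 to 473 with 1 library left out. For D8B against WT it was 339, against 175 without a filter, 632 with robust variances, 817 with 300 bp or more, 594 with the midpoint, 213 with the replicate block, and 98 to 477 with 1 library left out. For D8B against D8A it was 23, against 11 without a filter, 116 with robust variances, 197 with 300 bp or more, 82 with the midpoint, 9 with the block, and 10 to 104 with 1 library left out, and 15 higher and 8 lower became 8 higher and 8 lower with quantile normalization. With features of 300 bp or more the prior degrees of freedom were 246.6, against 4.705, so that nearly all of the spread came from the common trend. Beyond that, the cause of these shifts was not tested.

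Of the members' differences, 439 kept their side of the threshold, 43 gained a call, 19 lost one and 3 changed sign: PET9 in D8A to 0.032 without D8A replicate 1, AAC3 in D8B to 0.12 without D8B replicate 2, and HYP2 between D8B and D8A to 0.049 without D8A replicate 2. With 1 library left out they ranged from -0.59 to 0.032, from -0.23 to 0.12 and from -0.18 to 0.049. None of these 3 passed. The isoform ratios of both null strains together moved by less than the replicate SD in each alternative. For the replicate block and for leaving out 1 null library the calculation fixed this outcome, so it does not show that the ratios are stable. In comparisons of single strains, the ANB1/HYP2 and COX5B/COX5A ratios moved by more than that SD in some alternatives. Replicates of different strains share only a number: their deviations correlated at -0.148 (D8A and WT), 0.332 (D8B and WT) and -0.254 (D8B and D8A). With the replicate block COX5B was lost for both null strains (limma adjusted p = 0.0682) and in D8A (0.0792), as was AAC3 in D8A (0.0862). For both null strains the block also ended the calls of MGA2, COX6, CYC3, CYT1, CCP1 and PIC2 (limma adjusted p from 0.0555 to 0.119). In single strains it ended those of MGA2 in D8A and of MGA2, COX4, COX6, CYC3, CCP1, PIC2 and TIR1 in D8B (0.0869 to 0.133), and that of TIR1 between D8B and D8A (0.165). Ratios of single strains, and of D8B against D8A, were taken with the midpoint and with 1 library left out after seeing the data. Depth limits CYC7, ANB1 and AAC3 in D8A most.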
